A study of Mus musculus with 18 samples.

Results

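The mitochondrial chromosome of the mouse encodes 37 genes, and all 37 were found among the 55453 symbols of each count table by their prefix mt-. They comprise 13 protein genes, 2 rRNA genes and 22 tRNA genes. Bulk RNA-seq was done on whole aortae, one animal to a library, after the surrounding fat and connective tissue had been trimmed away. The study's methods describe selection of polyadenylated transcripts. The sample labels disagree with this description about the kit, so the selection used for each library is not settled. In the homology-directed repair (HDR) experiment, Cas9, a guide RNA and a repair template had changed bases of the CArG box in the *Tspan2* promoter, the site bound by serum response factor. It held 5 wild-type (WT) and 5 homozygous *Tspan2* sg/sg libraries from C57BL/6 mice of 12 weeks, with 3 females and 2 males of each genotype, and the table's columns do not say which library is of which sex. In the prime editing (PE2) experiment, a nickase fused to a reverse transcriptase had changed a single base of the same box. It held 4 WT and 4 homozygous *Tspan2* peg/peg libraries from mice of 8 weeks whose strain is labelled FVB/N/B6(Cg)-Tyrc-2J/J. The PE2 libraries came from females, apart from WT replicate 4, which came from a male. Founders of both lines were made from FVB/NJ females and B6(Cg)-Tyr2J/J males and were bred to C57BL/6J before the intercross, per the study's methods, and the sources used here do not say which strain's maternal mitochondrial DNA these animals carried. Libraries are named below as the tables name them, WT_2 to WT_6 and Mut_2 to Mut_6 for HDR, and WT_1 to WT_4 and Homo_1 to Homo_4 for PE2. The comparison of mutant with WT within each experiment asked whether the edit of the *Tspan2* promoter was accompanied by a difference in mitochondrial transcripts.

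Mitochondrial DNA is read from both strands as long transcripts that are cut at the tRNAs into rRNAs, tRNAs and mRNAs, most of which receive a short poly(A) tail. The protein genes encode core subunits of 4 complexes of oxidative phosphorylation, and the remaining subunits come from nuclear genes. Stretches of mitochondrial DNA have also been copied into nuclear chromosomes during evolution, and reads that match both copies equally cannot be placed.

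Library totals ran from 17290992 to 24880385 counts in HDR and from 38820265 to 44895615 in PE2. *Tspan2* averaged 208 ± 59.9 CPM (counts per 1e+06 after scaling by the trimmed mean of M values; SD, n = 5) in HDR WT and 24.8 ± 8.11 (n = 5) in sg/sg aortae. It averaged 218 ± 45.0 CPM (SD, n = 4) in PE2 WT and 19.9 ± 6.73 (n = 4) in peg/peg aortae, and no mutant library reached a WT level in either experiment. Smooth muscle markers fixed as a list of 7 genes summed to between 15859 and 57908 CPM in the 18 libraries, and none of the 7 was at 0 in any group. Markers of brown fat were present too, and *Ucp1*, the uncoupling protein that defines brown fat, ran from 87.2 to 887 CPM in HDR. In PE2 it ran from 1.36 CPM in Homo_3 to 1640 in WT_4. Homo_3 stands apart from the other PE2 libraries in several lists, and the PE2 fold changes of the members are also given without it.

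Of the protein genes, 6 carried almost no assigned reads, and this sets which members can be compared at all. The 11 consecutive genes from *mt-Ts1* to *mt-Nd4l* (chrM:6870-10173, GRCm38), of which 6 encode proteins and 5 encode tRNAs, held 49 of the 27376101 mitochondrial counts of HDR and 217 of the 28794815 of PE2. The protein genes are *mt-Co2* and *mt-Co3* of cytochrome c oxidase (complex IV), *mt-Atp8* and *mt-Atp6* of ATP synthase (complex V), and *mt-Nd3* and *mt-Nd4l* of NADH dehydrogenase (complex I). The genes on both sides of the stretch were among the most abundant in the libraries. A library at 0 allows up to 0.121 to 0.174 CPM of assigned reads in HDR and 0.0668 to 0.0773 CPM in PE2 (3 counts of the total, for counting error only), which limits reads that were assigned and not the transcripts.

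The transcripts of this stretch have near-identical annotated copies on the minus strand of chromosome 1 (chr1:24611535-24616197, GRCm38), among them the pseudogenes *Gm28661* of *mt-Co2*, *Gm10925* of *mt-Atp6*, *Gm28437* of *mt-Co3*, *Gm28438* of *mt-Nd3* and *Gm10222* of *mt-Nd4l*. The first 75 bases of *mt-Co2* (chrM:7013-7087, plus strand) and of *mt-Co3* (chrM:8607-8681, plus strand) are shown because a read of that length drawn from either gene is found letter for letter in its copy. The copies' own bases come from chr1:24615491-24615565 and chr1:24613897-24613971, both on the minus strand. Sequences are from the Gencode M21 transcripts on GRCm38.
mt-Co2: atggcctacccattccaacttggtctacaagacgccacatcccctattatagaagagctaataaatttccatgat
Gm28661: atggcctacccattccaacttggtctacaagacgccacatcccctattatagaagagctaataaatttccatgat
mt-Co3: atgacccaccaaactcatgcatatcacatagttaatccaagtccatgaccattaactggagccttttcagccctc
Gm28437: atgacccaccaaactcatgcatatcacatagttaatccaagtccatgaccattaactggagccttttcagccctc

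Of all windows of 75 bases in a transcript, the share found exactly in another annotated transcript was 99.5% for *mt-Co2*, 99.5% for *mt-Atp6*, 99.9% for *mt-Co3*, 97.8% for *mt-Nd3* and 98.7% for *mt-Nd4l*. These genes are the ones near 0. The share was 61.5% for *mt-Nd4* and 39.8% for *mt-Co1*. The start of *mt-Nd4* and the end of *mt-Co1* lie in the same copied stretch. Windows of *mt-Co1* were also found in *Gm13340*, a copy on chromosome 2. For *mt-Nd2* the share was 5.71%, for *mt-Nd5* 1.66%, and for *mt-Nd1*, *mt-Nd6*, *mt-Cytb*, *mt-Rnr1* and *mt-Rnr2* 0%. *mt-Atp8* had 0% as well and yet no count in any library. The search covered annotated transcripts, and none is annotated between *Gm28661* and *Gm10925*, where the chromosome 1 stretch passes from the copy of *mt-Co2* to that of *mt-Atp6*. The last 43 bases of *mt-Atp8* also belong to *mt-Atp6*. Its end (chrM:7910-7969, plus strand) is shown with the bases shared with *mt-Atp6* in capitals.
mt-Atp8: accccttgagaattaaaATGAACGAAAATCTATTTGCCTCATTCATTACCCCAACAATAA

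How the authors' counting treated reads with several positions is not given in the sources used here. Levels are compared between genes per kilobase of windows found in no other transcript, which assumes that such reads were not counted. The 3 tRNA genes *mt-Th*, *mt-Ts2* and *mt-Tl2*, which lie between *mt-Nd4* and *mt-Nd5*, were at 0 in every library too. A tRNA gene is shorter than or about as long as a read, and mature tRNAs carry no long poly(A) tail. Of the 22 tRNA genes, 6 had at least 10 counts in every HDR library and 3 in every PE2 library.

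**Figure D1:**
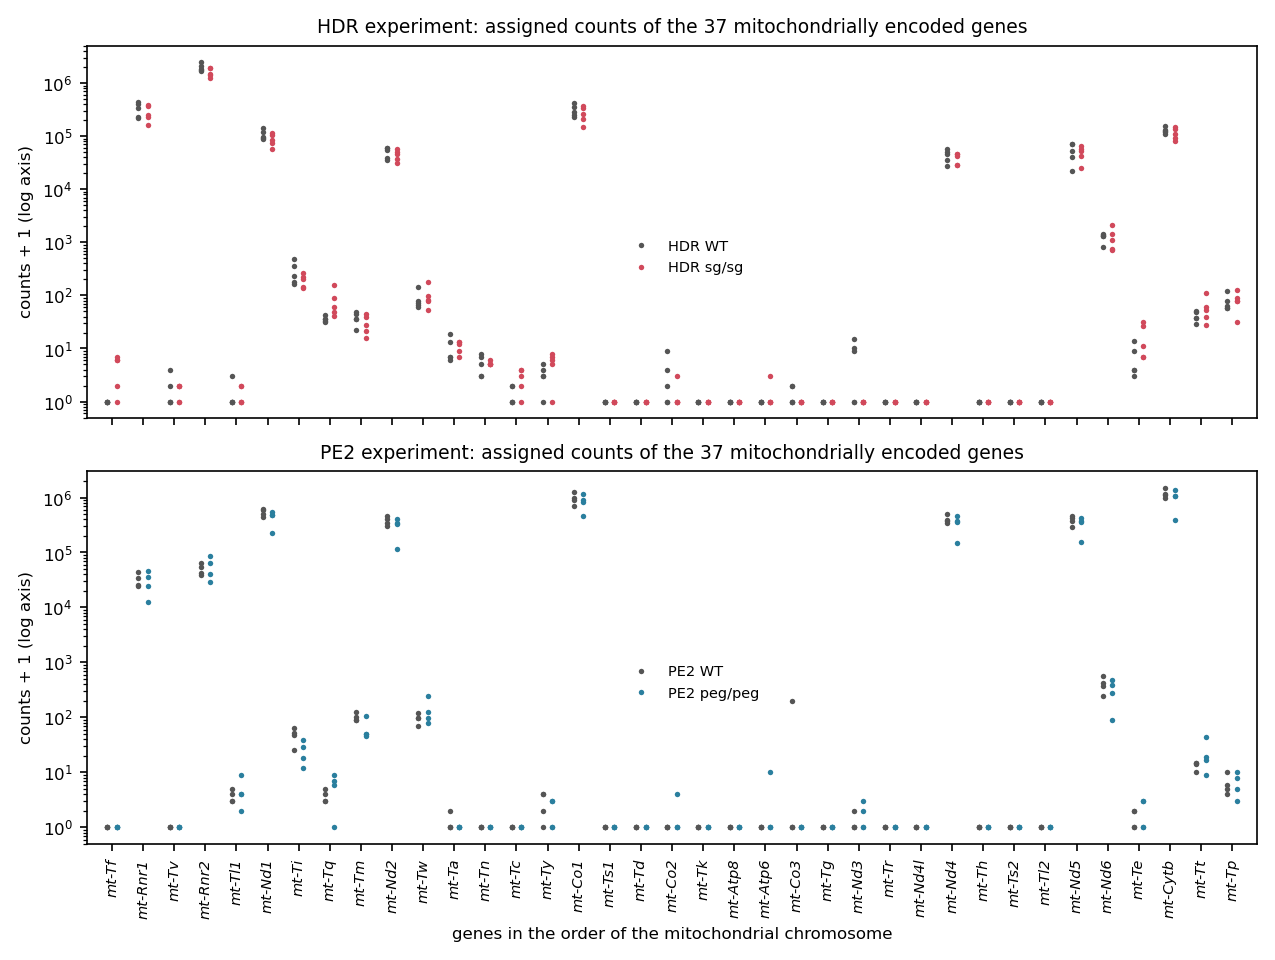
Assigned counts plus 1 (log axis) of the 37 mitochondrially encoded genes in the order of the chromosome, one point per library, with WT in grey and mutants in colour, HDR above and PE2 below. The stretch from *mt-Ts1* to *mt-Nd4l* lies at or near 0 in both experiments, and the rRNA genes *mt-Rnr1* and *mt-Rnr2* lie far lower in PE2 than in HDR.

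Mitochondrially encoded genes took a large part of every library. In HDR WT they made up 14.7%, 13.5%, 11.5%, 14.5% and 14.9% of all counts in WT_2 to WT_6. In the sg/sg aortae they made up 11.4%, 11.9%, 16.8%, 13.7% and 10.6% in Mut_2 to Mut_6. The groups overlapped, with the highest and the lowest library both among the mutants. The means were 13.8% ± 1.41 (SD, n = 5) and 12.9% ± 2.48 (n = 5), a difference of -0.92 percentage points (exact two-sided permutation test, p = 0.468, where 0.00794 is the smallest p for 5 against 5). Leaving out 1 library moved the difference to between -1.90 (without Mut_4, exact permutation p = 0.0873) and -0.342 percentage points (without Mut_6, exact permutation p = 0.770). A p of this size does not show that the shares were the same.

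In PE2 WT the share was 12.4%, 7.47%, 8.16% and 9.94% in WT_1 to WT_4. In peg/peg aortae it was 8.51%, 11.2%, 3.70% and 8.92% in Homo_1 to Homo_4. The groups overlapped again, and Homo_3 lay below all other libraries. The means were 9.50% ± 2.22 (SD, n = 4) and 8.08% ± 3.14 (n = 4), a difference of -1.42 percentage points (exact two-sided permutation test, p = 0.543, where 0.0286 is the smallest p for 4 against 4). Without Homo_3 the difference was 0.04 percentage points, of the opposite sign.

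**Figure D2:**
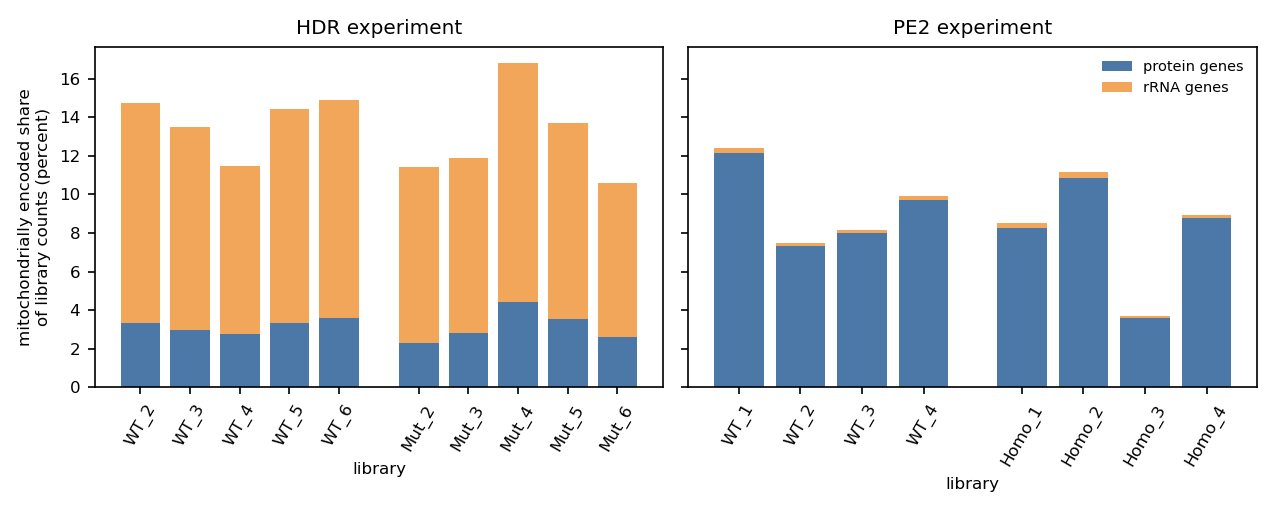
Share of each library's counts (percent, bars from 0) taken by mitochondrial protein genes and mitochondrial rRNA genes, with WT libraries on the left and mutants on the right of each panel. The rRNA genes make up most of the bar in every HDR library and a thin cap in PE2, and Homo_3 is the lowest bar at 3.70%.

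None of the members passed the test between genotypes in either experiment. edgeR's quasi-likelihood test was run across all genes that passed the filter on low counts, which 16 of the 37 members did in HDR and 13 in PE2, with Benjamini-Hochberg adjustment over all genes tested. In HDR 0 of 16 members had an adjusted p under 0.05, against a background of 0.00609% of the 16423 genes tested. At an unadjusted p under 0.05 the count was 1 of 16, against 1.98% of all genes. In PE2 0 of 13 members had an adjusted p under 0.05, against a background of 0.0061% of the 16401 genes tested, and 0 of 13 had an unadjusted p under 0.05, against 4.3% of all genes. DESeq2's Wald test and limma-voom also called 0 members in both experiments. At an unadjusted p under 0.05, DESeq2 had 4 members higher and 1 lower of 27 in HDR, against 1.59% of all genes it tested, and 0 of 23 in PE2, against 3.51%. Limma-voom had 1 of 16 higher in HDR, against 1.6% of all genes, and 1 of 13 lower in PE2, against 3.27%. DESeq2's 27 and 23 members include those too low for the filter of the other tests, 11 in HDR and 10 in PE2. Its unadjusted counts are therefore not on the same set of members. With so few genes called anywhere in these tables, a count of 0 is what the background gives.

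The subunits of complex I that could be compared were *mt-Nd1*, *mt-Nd2*, *mt-Nd4*, *mt-Nd5* and *mt-Nd6*, which form part of the membrane arm where the complex pumps protons. In HDR the log2 fold change of *mt-Nd1* was -0.14 ± 0.21 (SE; edgeR, adjusted p = 1.00) and that of *mt-Nd2* was -0.03 ± 0.22. *mt-Nd4* stood at -0.01 ± 0.22, *mt-Nd5* at 0.06 ± 0.33 and *mt-Nd6* at 0.13 ± 0.30 on the same scale. Each was smaller than its standard error. In PE2 the values were -0.28 ± 0.40 for *mt-Nd1* (edgeR, adjusted p = 0.895), -0.31 ± 0.45 for *mt-Nd2*, -0.22 ± 0.42 for *mt-Nd4*, -0.19 ± 0.42 for *mt-Nd5* and -0.32 ± 0.53 for *mt-Nd6*. They too were smaller than their standard errors, which were larger than those of HDR. Without Homo_3 they were -0.05 for *mt-Nd1*, -0.03 for *mt-Nd2*, 0.03 for *mt-Nd4*, 0.06 for *mt-Nd5* and -0.0047 for *mt-Nd6*.

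*mt-Nd6* is the only protein gene on the light strand, opposite all the others, and its last 14 bases face the end of *mt-Nd5*. Its end (chrM:13552-13611, minus strand) is shown with the facing bases in capitals, because reads there can be told from those of *mt-Nd5* only by strand, and the strand setting of the counting is not stated.
mt-Nd6: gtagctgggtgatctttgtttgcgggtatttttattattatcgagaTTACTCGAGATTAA
In HDR WT *mt-Nd6* had 72.3, 38.0, 57.0, 65.9 and 59.3 CPM in WT_2 to WT_6. In sg/sg aortae it had 59.2, 34.7, 119, 67.7 and 39.0 CPM in Mut_2 to Mut_6. Mut_4 was high and the other 4 mutants lay within the WT range or just below it. In PE2 it had 10.5, 9.28, 5.29 and 13.6 CPM in WT_1 to WT_4 and 6.68, 9.91, 1.91 and 12.5 CPM in Homo_1 to Homo_4, with Homo_3 again the lowest.

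*mt-Cytb*, which encodes cytochrome b and is the single mitochondrially encoded subunit of complex III, had no window in common with another transcript. In HDR it had 6426, 5636, 4817, 6350 and 6576 CPM in WT_2 to WT_6 and 4509, 5366, 8361, 6343 and 4962 CPM in Mut_2 to Mut_6. The mutants spread on both sides of the WT range. The log2 fold change was -0.01 ± 0.19 (SE; edgeR, adjusted p = 1.00). In PE2 it had 37538, 24041, 24302 and 27815 CPM in WT_1 to WT_4. It had 25920, 34204, 8621 and 28179 CPM in Homo_1 to Homo_4, where 3 of the 4 lay inside the WT range. The log2 fold change was -0.23 ± 0.52 (SE; edgeR, adjusted p = 0.933), and without Homo_3 it was 0.04.

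*mt-Co1* encodes the catalytic subunit of complex IV. In HDR it had 12449, 10941, 12818, 17588 and 17923 CPM in WT_2 to WT_6 and 8255, 10257, 19150, 17430 and 14209 CPM in Mut_2 to Mut_6. The groups overlapped, and the log2 fold change was -0.05 ± 0.26 (SE; edgeR, adjusted p = 1.00). In PE2 it had 31671, 17730, 19500 and 23776 CPM in WT_1 to WT_4 and 21994, 29110, 10257 and 21918 CPM in Homo_1 to Homo_4. The log2 fold change was -0.15 ± 0.46 (SE; edgeR, adjusted p = 0.948), and without Homo_3 it was 0.06. For complex V no value can be given, since *mt-Atp6* reached at most 9 counts in a library.

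*mt-Rnr1* and *mt-Rnr2* encode the small and the large rRNA of the mitochondrial ribosome. *mt-Rnr2* was the most abundant member in HDR, with 91484, 82476, 75564, 103308 and 103887 CPM in WT_2 to WT_6. The sg/sg libraries had 67120, 69524, 106952, 90324 and 78006 CPM in Mut_2 to Mut_6, which held the highest value of the experiment and its lowest pair. The log2 fold change was -0.15 ± 0.22 (SE; edgeR, adjusted p = 1.00), and that of *mt-Rnr1* was -0.08 ± 0.30. In PE2 *mt-Rnr2* had 1606, 979, 943 and 1323 CPM in WT_1 to WT_4 and 1564, 2174, 649 and 1040 CPM in Homo_1 to Homo_4. Its log2 fold change was 0.16 ± 0.38 (SE; edgeR, adjusted p = 0.935), and that of *mt-Rnr1* was -0.09 ± 0.43. Without Homo_3 they were 0.38 and 0.18.

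Over the 7 protein genes tested, the median log2 fold change was -0.01 in HDR, where the median over all genes tested was 0.0031, and -0.23 in PE2, where that over all genes was 0.013. All 7 were on the negative side in PE2, and they share the same libraries and largely the same precursor transcript, so they are not 7 separate observations. Without Homo_3 the PE2 median was 0.035, and without WT_1 it was -0.085. Homo_3 held the lowest value of all 9 protein and rRNA genes that could be tested in PE2. In HDR, Mut_4 held the highest value of 7 of these 9 genes. In bulk tissue, fewer cells of a type and less RNA per cell cannot be told apart.

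**Figure D3:**
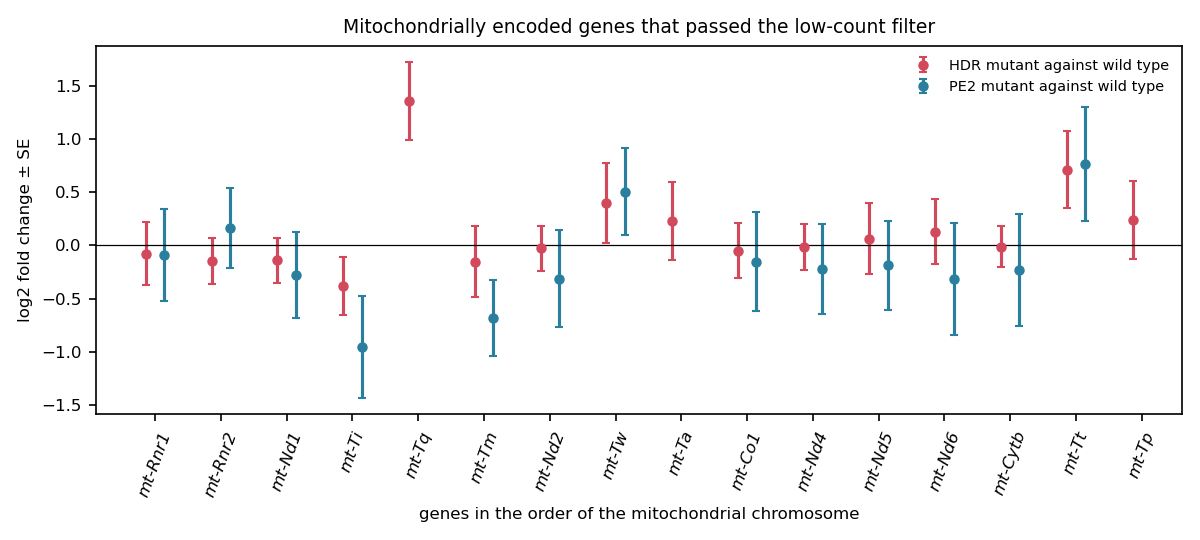
Log2 fold change of mutant against WT with its standard error (edgeR) for each mitochondrially encoded gene that passed the low-count filter, HDR in red and PE2 in blue. The points lie near 0 with error bars that cross it, apart from a few tRNA genes, of which *mt-Tq* in HDR is the farthest at 1.35.

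Among the tRNA genes, *mt-Tq*, the glutamine tRNA on the light strand, was the only member with an unadjusted p under 0.05 in edgeR. It had 30, 35, 35, 32 and 41 counts in WT_2 to WT_6, and 153, 48, 88, 60 and 40 counts in Mut_2 to Mut_6. On the CPM scale the highest WT library had 1.73 and the mutants ran from 2.12 to 8.33, so the groups did not overlap, which held for 1 of the 16 members tested and for 0.317% of all genes. The log2 fold change was 1.35 ± 0.37 (SE; edgeR, unadjusted p = 0.00317, adjusted p = 1.00), so it did not pass the test. Without Mut_2 it was 0.92. In PE2 it had between 0 and 8 counts and was not tested. *mt-Ti*, the isoleucine tRNA, lies on the other strand and overlaps it by 3 bases. The transcripts of *mt-Ti* (chrM:3706-3774, plus strand) and *mt-Tq* (chrM:3772-3842, minus strand) are shown because the first was the most abundant tRNA in HDR and the second had the largest fold change.
mt-Ti: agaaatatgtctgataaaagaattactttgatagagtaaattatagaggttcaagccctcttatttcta
mt-Tq: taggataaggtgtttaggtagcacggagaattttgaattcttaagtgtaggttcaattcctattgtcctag

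*mt-Ti* averaged 12.8 CPM in HDR WT and 9.80 in *Tspan2* sg/sg aortae, a log2 fold change of -0.38 ± 0.27 (SE; edgeR, adjusted p = 1.00). In PE2 it averaged 1.13 and 0.582 CPM, with -0.95 ± 0.48 (SE; edgeR, adjusted p = 0.861). The log2 fold change of *mt-Tm*, the methionine tRNA, was -0.16 ± 0.33 in HDR and -0.68 ± 0.36 in PE2. For *mt-Tw*, the tryptophan tRNA, it was 0.40 ± 0.38 in HDR and 0.50 ± 0.41 in PE2. *mt-Tt*, the threonine tRNA, stood at 0.71 ± 0.36 in HDR and 0.76 ± 0.53 in PE2, and *mt-Tp*, the proline tRNA, at 0.24 ± 0.37 in HDR. None of these passed the test. Several rested on 1 library. Without Mut_4 the HDR value was 0.27 for *mt-Tt* and -0.0014 for *mt-Tw*, and without WT_6 that of *mt-Ti* was -0.16. Without Homo_2 the PE2 value was 0.11 for *mt-Tt*, 0.014 for *mt-Tw* and -1.10 for *mt-Tm*. Without Homo_3 it was 0.87 for *mt-Tt*, 0.66 for *mt-Tw*, -0.70 for *mt-Ti* and -0.53 for *mt-Tm*. In PE2 the groups overlapped for all 13 members tested, where they did not overlap for 2.54% of all genes.

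The difference between the effects in the 2 experiments was tested in a joint fit over the 18 libraries. Of 17 members tested, 0 had an adjusted p under 0.05 (edgeR interaction contrast), where 0% of the 18094 genes had one, and 0 had an unadjusted p under 0.05, where 5.13% of all genes had one. The largest protein-gene difference, that of *mt-Nd6*, was -0.45 ± 0.60 on the log2 scale (PE2 minus HDR). No difference in response between the experiments was detectable with these standard errors. The experiments also differ in age, labelled strain, depth and library, so the contrast does not isolate the edits.

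The make-up of the mitochondrial counts was compared as well, as 7 shares in each experiment with adjustment over the 14 tests. In HDR, rRNA took 76.8% ± 0.976 (SD, n = 5) of the mitochondrial counts in WT and 75.9% ± 2.41 (n = 5) in sg/sg aortae. Complex I took 8.54% ± 1.06 and 8.87% ± 0.894, complex III 4.29% ± 0.0879 and 4.56% ± 0.392, and complex IV 10.3% ± 1.72 and 10.6% ± 2.34. The tRNA genes took 0.0190% ± 0.00313 and 0.0234% ± 0.00512, and *mt-Nd6* 0.0423% ± 0.00910 and 0.0480% ± 0.0169. In PE2 the order was turned over, with rRNA at 2.08% ± 0.174 (SD, n = 4) in WT and 2.56% ± 0.499 (n = 4) in peg/peg aortae. Complex I took 43.7% ± 1.64 and 42.4% ± 1.01, complex III 30.0% ± 1.14 and 28.9% ± 2.41, and complex IV averaged 24.2% (22.8% to 25.8%) and 26.2% (23.9% to 30.2%). No share passed the test between genotypes (exact permutation tests, smallest adjusted p = 0.600), and every pair of groups overlapped. In HDR, 2 shares crossed an unadjusted 0.05 when 1 library was left out, that of tRNA without Mut_6 (exact permutation p = 0.0476) and that of complex III without Mut_2 (exact permutation p = 0.0159). In PE2 the rRNA share did so without Homo_4 (exact permutation p = 0.0286). Single libraries also moved the size of the differences, given here as mutant minus WT in percentage points of the mitochondrial counts. That of HDR rRNA ran from -1.91 (without Mut_2) to -0.373 (without Mut_4), that of PE2 complex I from -2.13 (without WT_1) to -0.844 (without WT_4), and that of PE2 complex IV from 0.593 (without Homo_3) to 2.68 (without Homo_4). Without Homo_3 the PE2 difference of complex I was -1.14 and that of complex III 0.115, of the opposite sign.

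The balance of the rRNAs split the HDR libraries by the number in their name and not by genotype. *mt-Rnr1* made up 18.4%, 19.9%, 24.3% and 20.5% of the counts of both rRNAs in WT_2, WT_3, Mut_2 and Mut_3. It made up between 9.62% and 12.3% in the 6 libraries numbered 4 to 6. The sets do not overlap, and the labels do not say what the numbers stand for. Within the libraries numbered 2 and 3 the mitochondrial share averaged 14.1% in 2 WT and 11.7% in 2 sg/sg aortae. Within those numbered 4 to 6 it averaged 13.6% in 3 WT and 13.7% in 3 sg/sg aortae, so the direction of the pooled difference came from the first set. These sets were formed after the values were seen and hold only 2 or 3 libraries of a genotype. The share was not tested within them. In PE2 *mt-Rnr1* made up 38.9% ± 1.97 (SD, n = 4) of the rRNA counts in WT and 34.6% ± 3.63 (n = 4) in peg/peg aortae (exact permutation p = 0.0571, adjusted p = 0.229 over 4 tests that were added after seeing the data). The difference of -4.31 percentage points was -5.41 without Homo_4 (exact permutation p = 0.0286) and -2.61 without Homo_3 (exact permutation p = 0.143). *mt-Rnr1* counts in HDR averaged 14.4% ± 4.47 (SD, n = 5) of the rRNAs in WT and 15.4% ± 6.56 (n = 5) in sg/sg aortae (exact permutation p = 0.762, adjusted p = 0.762).

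A second split in HDR concerned the counts of *mt-Nd3* and of its copy *Gm28438* on chromosome 1. The only difference between both genes over their aligned bases is T3C, counted from 1 at the start of *mt-Nd3*, with the mitochondrial reference base first. Both are shown over their first 40 bases (chrM:9459-9498, plus strand, and chr1:24613080-24613119, minus strand) with that base in capitals.
mt-Nd3: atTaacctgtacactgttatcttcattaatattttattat
Gm28438: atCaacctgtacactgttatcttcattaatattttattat
*mt-Nd3* had 8, 9 and 14 counts in WT_4, WT_5 and WT_6 and 0 in the other 7 HDR libraries. *Gm28438* had 1, 0 and 0 counts in the same 3 libraries, and 39, 38, 37, 46, 78, 120 and 108 in WT_2, WT_3 and Mut_2 to Mut_6. No library with counts of one gene had more than 1 count of the other, and all 5 sg/sg libraries were of the second kind. *Gm10222*, the neighbouring copy of *mt-Nd4l*, divided the same libraries and was at 0 in WT_4, WT_5 and WT_6 and had between 2 and 10 counts in the other 7 libraries. Counts per gene hold no base calls. Whether the mitochondrial DNA of these animals differs at this base was not tested. In PE2, *Gm28438* was at 0 in every library and *mt-Nd3* had between 0 and 2 counts. These copies were singled out after their values were seen.

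**Figure D4:**
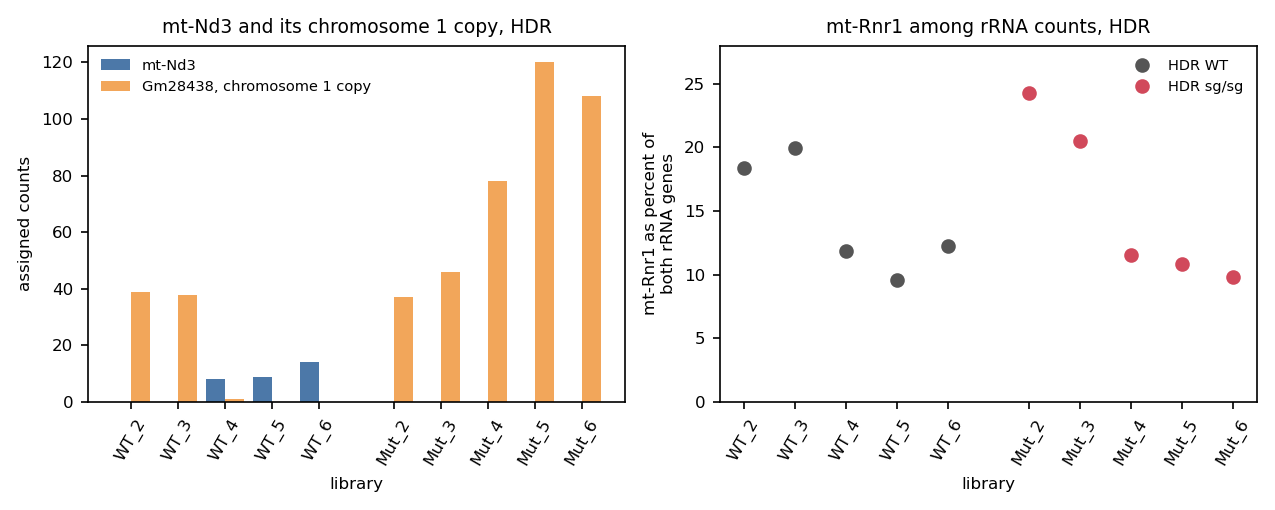
Left, assigned counts (bars from 0) of *mt-Nd3* and its chromosome 1 copy *Gm28438* in each HDR library; right, *mt-Rnr1* as percent of the counts of both rRNA genes, one point per library. *mt-Nd3* has counts in WT_4, WT_5 and WT_6 and the copy in the other 7 libraries, and the 4 libraries numbered 2 and 3 lie above 18% on the right while the others lie below 13%.

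Other copies gave signs of single libraries. *Gm13340*, a copy of *mt-Co1* on chromosome 2 (chr2:22588103-22589647, minus strand) with 97.6% identity over its 1545 bases, had 1549 counts in HDR Mut_2 and between 19 and 45 in the other 9 libraries. *mt-Co1* itself was lowest in Mut_2, at 8255 CPM. So were *mt-Rnr2* at 67120, *mt-Nd1* at 3169 and *mt-Cytb* at 4509 CPM, which share no window with another transcript. *mt-Rnr1* and *mt-Nd6* share none either and were not lowest in Mut_2. There *mt-Rnr1* had 21512 CPM, the highest of the HDR libraries, and *mt-Nd6* had 59.2 CPM, inside the range of the others. The part of *Gm13340* in the *mt-Co1* count was not tested. *Gm13341*, a copy of *mt-Co2* next to it (chr2:22587291-22587962, minus strand) with 95.9% identity, had between 8 and 43 counts in HDR and between 32 and 81 in PE2. In PE2, WT_2 had 201 counts of *mt-Co3*, where the other 7 libraries had 0, and 145 counts of *Gm29216*, where the others had between 0 and 5. *Gm29216* differs from *mt-Co1* over their aligned bases by A1066T alone, as shown in capitals over 40 bases (chrM:6390-6429, plus strand, and chr1:24616149-24616188, minus strand). It was singled out after its values were seen.
mt-Co1: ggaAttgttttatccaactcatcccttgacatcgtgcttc
Gm29216: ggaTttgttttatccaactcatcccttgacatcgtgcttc

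The widest differences in the data lay between the experiments, which differ in age, labelled strain, depth and library, so that these cannot be told apart and no test is given. Values across the tables, which were normalized separately, are given as counts per 1e+06 of the library total. *mt-Rnr2* ran from 69146 to 109569 in HDR and from 707 to 2137 in PE2, and its median was 74.5-fold higher in HDR. *mt-Rnr1* was 19.3-fold higher in HDR by its median, and *mt-Nd6*, on the light strand, 6.38-fold higher. *mt-Cytb* went the other way, from 4575 to 8566 in HDR and from 9401 to 37985 in PE2, a median 4.39-fold higher in PE2. *mt-Nd4* was 4.18-fold, *mt-Nd5* 3.55-fold, *mt-Nd2* 3.54-fold, *mt-Nd1* 2.56-fold and *mt-Co1* 1.63-fold higher in PE2 by their medians. The ranges of the 10 HDR and 8 PE2 libraries did not overlap for *mt-Rnr1*, *mt-Rnr2*, *mt-Nd4*, *mt-Nd5*, *mt-Nd6* and *mt-Cytb*, and they overlapped for *mt-Nd1*, *mt-Nd2* and *mt-Co1*. Among the tRNA genes, *mt-Tp* was 33.4-fold, *mt-Tq* 20.8-fold, *mt-Ti* 13.2-fold and *mt-Tt* 6.09-fold higher in HDR by their medians with no overlap, while the ranges of *mt-Tm* and *mt-Tw* overlapped.

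Per kilobase of windows found in no other transcript, the levels in HDR WT ran from *mt-Rnr2* at 60573 ± 8310 CPM per kilobase (SD, n = 5) down to *mt-Nd6* at 131 ± 29.0. In between came *mt-Rnr1* at 17432 ± 5684 and *mt-Co1* at 16208 ± 3610, whose order changed between libraries, and then *mt-Nd1* at 5700 ± 1043 and *mt-Cytb* at 5571 ± 687, whose order changed as well. *mt-Nd4* at 3988 ± 1044, *mt-Nd2* at 2563 ± 610 and *mt-Nd5* at 1401 ± 601 followed in that order in 5 of 5 libraries. In PE2 WT *mt-Cytb* at 26565 ± 5902 (SD, n = 4) and *mt-Co1* at 26180 ± 7017 led, each above the other in 2 of 4 libraries. *mt-Nd4* at 19392 ± 3787, *mt-Nd1* at 14752 ± 2703, *mt-Nd2* at 10087 ± 2128 and *mt-Nd5* at 5459 ± 1171 followed in that order in 4 of 4 libraries. The rRNAs came next, *mt-Rnr1* at 890 (629 to 1302) and *mt-Rnr2* at 804 ± 208, and *mt-Nd6* was again last at 21.7 ± 7.70. In sg/sg aortae *mt-Cytb* lay above *mt-Nd1* in 4 of 5 libraries, and in peg/peg aortae *mt-Co1* lay above *mt-Cytb* and *mt-Rnr2* above *mt-Rnr1* in 3 of 4. *mt-Nd1* lay above *mt-Nd4* in 4 of 5 sg/sg libraries. The other neighbours in the order stood as in WT. Per kilobase of the whole transcript the order of some genes is another one. On that scale *mt-Nd4* in HDR WT, at 1453 CPM per kilobase, lay below *mt-Nd2* at 2245. In PE2 WT *mt-Nd4* at 7064 lay below *mt-Nd1* at 13611 and *mt-Nd2* at 8834, and *mt-Co1* at 14997 lay below *mt-Cytb* at 24846.

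The nuclear genes that work with these members were read from lists. Of the 76 nuclear respiratory chain subunits, 0 passed edgeR's test or DESeq2's in either experiment, and 0 had an unadjusted p under 0.05 in edgeR. Their median log2 fold change was -0.21 in HDR and -0.21 in PE2, with median standard errors of 0.22 and 0.20. Of the 47 genes that copy, transcribe, process or translate mitochondrial DNA, 0 passed in either experiment, and *Tsfm*, a translation elongation factor of mitochondria, had an unadjusted p under 0.05 in PE2. Its log2 fold change was -0.37 ± 0.15 (SE; edgeR, adjusted p = 0.861). Of the proteins of the mitochondrial ribosome, 77 were tested in HDR and 78 in PE2, and 0 passed. In PE2, 4 of the 78 had an unadjusted p under 0.05, all on the negative side, where 4.3% of all genes had one. They were *Mrps27* at -0.39 ± 0.13, *Mrpl24* at -0.17 ± 0.07, *Mrps26* at -0.24 ± 0.10 and *Mrpl57* at -0.24 ± 0.10 on the log2 scale (edgeR, adjusted p = 0.861 for each).

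None of the 15 biogenesis regulators tested had an unadjusted p under 0.05. Of the stress response genes that cells turn on when mitochondria fail, 0 of 17 passed in HDR and 0 of 18 in PE2. *Psat1*, an enzyme of serine synthesis, stood at -0.60 ± 0.25 in HDR and *Atf4*, the transcription factor of that response, at 0.25 ± 0.09 in PE2 (log2 fold change, SE; edgeR, adjusted p = 1.00 and 0.861).

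The mitochondrial share was set against the level of tissue markers from library to library, and of the relations with it only that with smooth muscle in PE2 passed the adjustment, by Pearson's r and not by Spearman's rho. In PE2 the share fell as the mean log2 level of the 7 smooth muscle markers rose, with Pearson's r = -0.976 (n = 8, exact permutation p = 0.000496, adjusted p = 0.00417 over 16 relations) and Spearman's rho = -0.881 (exact permutation p = 0.00724, adjusted p = 0.0579). Without the 2 libraries farthest from the median on the marker axis, WT_1 and Homo_3, r was -0.909. The markers were scaled on nuclear counts alone, so that the share does not enter them. *Des* of this list averaged 103 ± 8.41 CPM (SD, n = 4) in PE2 WT and 1469 ± 2731 (n = 4) in peg/peg aortae. The relation was not run without *Des*. In HDR r was -0.557 (n = 10, permutation p = 0.0949, adjusted p = 0.152) and rho -0.709 (permutation p = 0.0272, adjusted p = 0.109). Each experiment holds too few libraries of a genotype for r within it.

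With the 7 brown fat markers the share rose, with r = 0.839 in PE2 (n = 8, exact permutation p = 0.0167, adjusted p = 0.0629) and r = 0.727 in HDR (n = 10, permutation p = 0.0197, adjusted p = 0.0629), which fail the adjustment. Spearman's rho was 0.643 in PE2 (exact permutation p = 0.0962) and 0.745 in HDR (permutation p = 0.0182). Without the 2 farthest libraries r was 0.460 in PE2 and 0.535 in HDR, so the relation in PE2 rests largely on Homo_1 and Homo_3. With the nuclear respiratory chain subunits r was 0.576 in HDR (n = 10, permutation p = 0.0850) and 0.460 in PE2 (n = 8, exact permutation p = 0.260), with rho = 0.564 (permutation p = 0.0979) and rho = 0.286 (exact permutation p = 0.501). Without the 2 farthest libraries these r were 0.564 and 0.677. With the library total r was -0.0594 in HDR (n = 10, permutation p = 0.872) and -0.522 in PE2 (n = 8, exact permutation p = 0.185), with rho = 0.00606 (permutation p = 1.00) and rho = -0.738 (exact permutation p = 0.0458, adjusted p = 0.122). Without the 2 farthest libraries these r were 0.103 and -0.528.

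**Figure D5:**
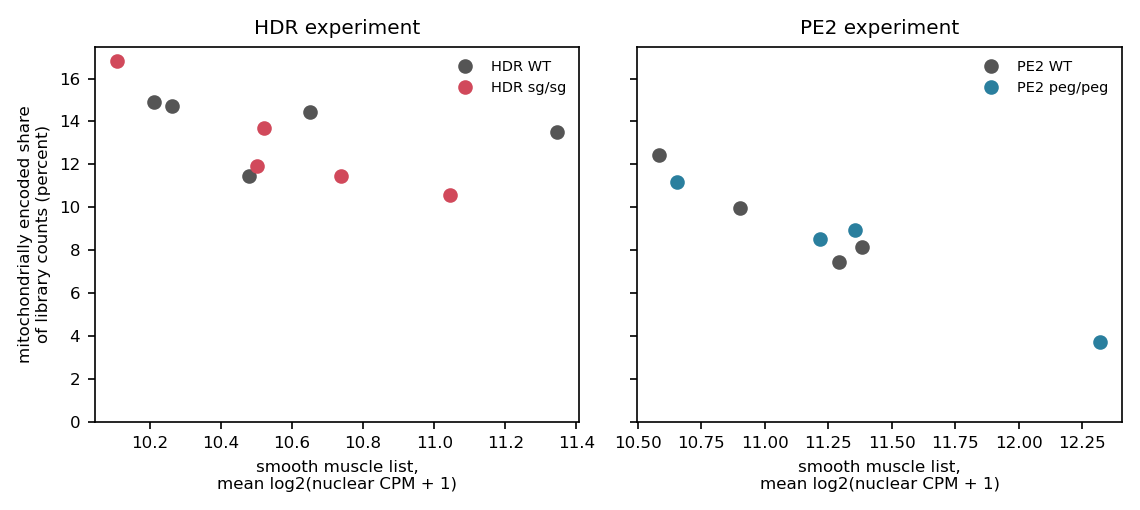
Mitochondrially encoded share of library counts (percent) against the mean log2(nuclear CPM + 1) of the 7 smooth muscle markers, one point per library, with WT in grey and mutants in colour. In PE2 the points fall along a line from 12.4% down to Homo_3 at 3.70%, with both genotypes along it, and in HDR they scatter more widely.

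Homo_3, the PE2 library with the lowest mitochondrial share, also stood apart in its tissue markers. The brown fat list summed to 14.3 CPM there and to between 493 and 2413 in the other 7 libraries, and all 7 of its genes were lowest in Homo_3, with none at 0. The 4 adipocyte and the 4 endothelial markers were lowest there as well. The sums of the fibroblast, macrophage and lymphocyte lists were highest in Homo_3 among the PE2 libraries, at 10285, 498 and 14.7 CPM. The highest PE2 WT sums of these lists were 8214, 349 and 13.2 CPM. The cardiac muscle list summed to 1034 CPM, against 15.1 to 132, with 4 of its 7 genes highest and 1 lowest in Homo_3. The skeletal muscle list summed to 1133 CPM, against 8.01 to 21.5, with 4 of its 7 genes highest and 2 lowest there. The smooth muscle list, which includes *Des*, also a gene of striated muscle, summed to 57908 CPM, against 27068 to 45553. Of its 7 genes, 4 were highest and 0 lowest in Homo_3. *Acta2* of that list had 14215 CPM there, where the other PE2 libraries ran from 13257 to 24723. The nuclear respiratory chain subunits summed to 11129 CPM, inside the range of the others. The part of these markers in the low mitochondrial share was not tested. In HDR, Mut_4 had the highest mitochondrial share and the lowest smooth muscle sum at 15859 CPM. Its brown fat sum of 1442 CPM lay next to that of WT_6 at 1436, and 1 of the 7 brown fat genes was highest in it. Its 4 endothelial markers summed to 2216 CPM, against 753 to 1635 in the other HDR libraries. The part of these markers in the shares was not tested.

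Between genotypes, markers of other cell types were tested as lists too, where 1.98% of all genes in HDR and 4.3% in PE2 had an unadjusted p under 0.05 in edgeR and no list gene passed the adjustment (adjusted p = 1.00 in HDR and 0.861 in PE2 for each gene named). In HDR, 4 of the 7 skeletal muscle markers had an unadjusted p under 0.05 on the positive side, while DESeq2 called 2. The sum of that list was nevertheless highest in a WT library, WT_3, at 127 CPM, against 9.82 to 81.2 in sg/sg aortae. Its median was 7.02 CPM in WT and 19.2 in sg/sg aortae. *Myh4*, a myosin of fast skeletal muscle, had 0.497 ± 0.199 CPM (SD, n = 5) in WT and 9.79 ± 12.2 (n = 5) in sg/sg aortae, a log2 fold change of 4.29 ± 0.84 (SE). On the same scale the calcium pump *Atp2a1* stood at 2.80 ± 0.57 and the myosin light chain *Mylpf* at 1.25 ± 0.51. *Myh1*, another myosin, averaged 1.23 ± 0.545 CPM (SD, n = 5) in WT and 3.49 ± 2.88 (n = 5) in sg/sg aortae. Of the 4 macrophage markers, 3 had an unadjusted p under 0.05 on the negative side in HDR and 0 did in PE2. They were the complement gene *C1qa* at -0.89 ± 0.30, *Cd68* at -0.74 ± 0.32 and *Adgre1* at -0.69 ± 0.30. The groups overlapped in the sum of the macrophage list. It ran from 105 to 375 CPM in HDR WT, highest in WT_6, with a median of 155. In sg/sg aortae it ran from 80.8 to 168 CPM, with a median of 108. Of the cardiac muscle markers, 2 of 4 tested in HDR had an unadjusted p under 0.05 on the negative side, *Myh6* at -2.18 ± 0.98 and *Tnnt2* at -2.15 ± 0.98. The sum of that list was 127 CPM in WT_3, against 5.83 to 30.3 in the other HDR libraries. Its median was 7.55 CPM in HDR WT and 11.8 in sg/sg aortae. In PE2, 3 of 6 cardiac muscle markers tested had an unadjusted p under 0.05 on the positive side. They were *Tnnt2* at 5.64 ± 1.57, *Myl7* at 3.87 ± 1.40 and *Myh6* at 3.73 ± 1.25. In PE2, 2 of 6 skeletal muscle markers tested did so on the positive side, *Acta1* at 6.07 ± 2.28 and *Ckm*, which averaged 3.49 ± 1.23 CPM (SD, n = 4) in WT and 78.5 ± 148 (n = 4) in peg/peg aortae. *Des*, of the smooth muscle list, stood at 3.84 ± 1.46 there. Among the PE2 libraries, the sums of the cardiac and skeletal muscle lists were highest in Homo_3, as given above. The brown fat, adipocyte and endothelial lists had no gene with an unadjusted p under 0.05 in either experiment.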

How the data were processed

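The authors trimmed reads with fastp, aligned them with STAR 2.7.0f to GRCm38 with Gencode M22, counted with featureCounts (Subread 1.6.4), and deposited raw counts per gene symbol. They also deposited a signal scale, those counts divided by DESeq2 1.22.1 size factors, which was read only to check the counts. Labels and methods differ on kit and read length, and strand and multi-mapping settings are not stated. Every per-sample column was mapped, leaving 0 unused. From the counts, edgeR 4.0.16 (TMM, filterByExpr, quasi-likelihood test on genotype, Benjamini-Hochberg adjusted p under 0.05) was run on each whole table and tested on simulated data. DESeq2 1.42.0 and limma 3.58.1 (voom) were alternatives, along with sizes without mitochondrial genes, other filters, sex, a replicate block and each library left out. Shares used exact permutation tests, and correlations permutation tests (exact for 8 libraries, 100000 resamples for 10). Replicates are separate animals, and no pair was a duplicate (chi-square per degree of freedom at least 17.2). Copies were sought with blastn 2.17.0 among Gencode M21 transcripts on GRCm38, since no genome sequence was used here, so copies outside annotated transcripts were missed. Named were all protein and rRNA genes, tRNA genes and copies (at least 500 bases and 95% identity) with at least 10 counts in every library of an experiment, and list genes with an unadjusted p under 0.05, at most 5 per list. Members and lists were chosen with earlier results of these data known.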

Additional observations from a re-analysis of the deposited data

Results flagged for a closer look

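In groups of 4 or 5 libraries, a library was picked out where its gap to the nearest other, divided by the group's range, exceeded Dixon's critical value. Of 74 values and groups looked at, 5 were picked out, and chance gives about 1 in 20. These were *mt-Tw* in HDR WT_2 at 7.17 CPM, *mt-Tt* in HDR Mut_4 at 6.21 CPM, *mt-Nd4* in PE2 WT_1 at 12577 CPM, *mt-Tt* in PE2 WT_3 at 0.198 CPM and *mt-Tm* in PE2 Homo_2 at 2.64 CPM. Values also stood out in genes for which no comparison between genotypes is given here. *Gm13340* had 1549 counts in HDR Mut_2, where the next highest HDR library had 45. *mt-Co3* had 201 counts in PE2 WT_2 and 0 in the others, and *Gm29216* had 145 counts in the same library, where the next highest had 5.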

How the results depend on the processing

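No member was called at an adjusted p of 0.05 or 0.10 under any setting run. Unadjusted, edgeR with no filter had 4 higher and 1 lower of 27 in HDR and 1 lower of 23 in PE2, and it had 2 higher in HDR without Mut_6 and 2 lower in PE2 without Homo_2. The share and the median fold change kept their direction under each setting other than a left-out library. For all genes, edgeR called 1 in HDR, against 4 with DESeq2 and 4 with no filter, and 1 in PE2, against 33 with DESeq2 and 0 with the replicate block, with sex as covariate or with females only. With the replicate number as a block in PE2, 0 members were called and the median over the protein genes was -0.36. The share difference of -1.42 percentage points cannot change under that block, since each number holds a WT and a mutant library. Same-numbered PE2 libraries did not deviate together (correlations -0.253 to -0.0361, 0 of 8 closest to their own number). No pairing by number was seen, and so few libraries cannot exclude one. For HDR, whose column numbers are not tied to the labels' numbers, the block was chosen after seeing the data. Same-numbered HDR libraries correlated at -0.183 to 0.614 (3 of 10 closest to their own number). With that replicate block 0 members were called and *mt-Nd4* stood at 0.0011, or at 0.00062 with numbers 2 and 3 against 4 to 6 as a covariate. The HDR share difference of -0.921 percentage points cannot change under the block either. Leaving out 1 library moved the PE2 share difference from -2.46 (without Homo_2) to 0.0352 (without Homo_3). Of the shares within mitochondrial counts, the HDR differences ran from 0.00235 to 0.00574 for tRNA, -0.0901 to 0.585 for complex I, 0.139 to 0.397 for complex III, -0.202 to 1.14 for complex IV, -0.000477 to 0.0101 for *mt-Nd6*, and -1.25 to 2.37 for *mt-Rnr1* of the rRNAs. Those of PE2 ran from 0.355 to 0.724 for rRNA and -1.68 to 0.115 for complex III. Log2 fold changes in HDR ran from -0.19 to 0.086 for *mt-Co1*, -0.17 to 0.069 for *mt-Cytb*, -0.18 to 0.075 for *mt-Nd2*, -0.13 to 0.082 for *mt-Nd4*, -0.12 to 0.25 for *mt-Nd5*, -0.22 to 0.28 for *mt-Nd6*, -0.26 to 0.072 for *mt-Rnr1*, -0.40 to 0.022 for *mt-Tm*, -0.0079 to 0.52 for *mt-Tp* and -0.0014 to 0.73 for *mt-Tw*. In PE2 they ran from -0.37 to 0.062 for *mt-Co1*, -0.45 to 0.041 for *mt-Cytb*, -0.44 to 0.035 for *mt-Nd4*, -0.36 to 0.062 for *mt-Nd5*, -0.40 to 0.18 for *mt-Rnr1* and -0.17 to 0.38 for *mt-Rnr2*. Limma-voom gave 0.0012 for *mt-Nd4* in HDR. The cause was not tested. Counts near 0 limit the 11 genes of the low stretch and most tRNA genes.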
